A study of Caenorhabditis elegans with 2 samples.

Results

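MEIS and PBC proteins are TALE homeodomain transcription factors that form complexes with each other and with Hox proteins on DNA. In Caenorhabditis elegans the family includes the MEIS gene unc-62 and the PBC genes ceh-20, ceh-40 and ceh-60. Their vertebrate counterparts are the MEIS and PBX proteins, and their Drosophila counterparts are Homothorax and Extradenticle. In the worm they are known for neuroblast migration, embryonic patterning and mesoderm development, and ceh-60 acts with unc-62 in intestinal yolk protein expression. UNC-55 is a COUP-TF nuclear receptor that sets the synaptic pattern of the VD motor neurons. The data described here are the regions listed by ChIP-seq against UNC-55 in the windows of these 4 genes. The genes were 4 of 19973 annotated protein-coding genes. They were taken by name, each as its gene body with 7 kb on either side, and they were chosen by their numbers of IDR peaks, signal values and ranks in these same data. Those values are therefore given as a description, with no test.

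Chromatin was prepared from whole late embryos of mixed sex from strain NC1639. This strain carries the integrated array wdIs49 on III, with pttr39::UNC-55a::GFP and a dpy-20(+) marker. The ttr-39 promoter is known to be active in the D-type motor neurons, whereas the chromatin came from all cells of the embryo. The antibody is named in the labels only as unc-55, so whether the fusion, the worm's own UNC-55 or both was precipitated is not given. A note among the labels also gives a FLAG tag on the fusion. There were 2 biological replicates in 1 group, with no second condition, and the control library was not analysed here. Each deposited list gives regions with a signal value from the authors' peak caller and a summit, the base of strongest signal. The list of replicate 1 held 3577 regions, the list of replicate 2 and the pooled list 30000 each, and the IDR set 2511 peaks. IDR stands for irreproducible discovery rate, which scores whether regions hold similar ranks in repeated experiments. An IDR peak here need not be in both replicate lists, since 30.7% of the IDR peaks were overlapped by a region of replicate 1. The highest signal value was 19.1 for replicate 1, 306 for replicate 2 and 321 for the pooled list. The pooled list and the IDR set were made from both replicates, so their ranks are not independent of those in either replicate list. The values share no scale across lists, so regions are compared below by rank within a list, where 1 is the strongest. No read counts were analysed here, and the depth of either library is unknown. The lists say where the ChIP-seq against UNC-55 gave regions. Because the replicates have no counterpart of another genotype or stage, they do not say whether any of these genes changed expression.

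The 4 genes held 13 IDR summits in 12 distinct regions. unc-62 had 11, ceh-20 had 1, ceh-40 had 1 and ceh-60 had 0. Over all protein-coding genes, 29.5% had at least 1 IDR summit in a window built the same way, and the median window held 0. The 3 genes with a summit included the strongest peak of the whole set, at unc-62, and the peak of rank 5, at ceh-20. In all 13 cases the nearest protein-coding transcript start belonged to the MEIS or PBC gene and not to a neighbour. The pooled list held 46 summits in these windows, the list of replicate 1 held 20 and the list of replicate 2 held 49.

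The sequences under the strongest summits of unc-62 and ceh-20 are shown first, with the single summit of ceh-40. All are the plus strand of the WBcel235 reference from RefSeq, the build of the ce11 lists, and capitals mark TGACA or its reverse complement TGTCA. These are the 5-letter core of the TGACAG site of MEIS proteins, and they were chosen as a motif after these sequences had been seen. The first is the rank 2 peak upstream of unc-62, intergenic, at V:4491364-4491564.
unc-62 rank 2: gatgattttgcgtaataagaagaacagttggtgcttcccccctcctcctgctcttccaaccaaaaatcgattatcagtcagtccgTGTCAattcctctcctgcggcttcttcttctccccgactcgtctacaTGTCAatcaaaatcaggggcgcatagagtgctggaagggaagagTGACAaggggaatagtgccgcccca
Next is the rank 5 peak upstream of ceh-20, intergenic, at III:6979038-6979238, where the first TGACA begins at the summit base itself.
ceh-20 rank 5: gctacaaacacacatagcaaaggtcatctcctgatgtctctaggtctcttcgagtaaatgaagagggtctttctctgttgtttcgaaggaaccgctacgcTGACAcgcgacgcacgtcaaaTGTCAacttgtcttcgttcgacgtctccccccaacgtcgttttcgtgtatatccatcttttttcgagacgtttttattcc
The third is the rank 1296 peak at ceh-40, at X:12320778-12320937, which lies upstream of that gene, itself on the minus strand, and is printed without the bases inside the gene.
ceh-40 rank 1296: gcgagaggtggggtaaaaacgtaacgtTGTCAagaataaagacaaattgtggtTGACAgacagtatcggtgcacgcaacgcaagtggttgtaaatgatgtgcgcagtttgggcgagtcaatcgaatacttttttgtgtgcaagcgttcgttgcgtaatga
The summits of the unc-62 peaks of rank 1, 4, 26, 130, 480 and 2504 fall in annotated 5′ UTRs. For the first 4 of these, the 29 bases that hold the most TGACA letters are given. They lie at V:4508006-4508034 for rank 1, V:4499506-4499534 for rank 4, V:4499694-4499722 for rank 26 and V:4507310-4507338 for rank 130.
unc-62 rank 1: atggatcgccgcagctggcgacgtTGACA
unc-62 rank 4: TGTCAttttcgatattcatctgtcTGTCA
unc-62 rank 26: TGACAgactgactgacTGACAccccgttg
unc-62 rank 130: cTGACAtttcgTGTCAaacTGACAtacga
The rank 242 peak of unc-62, at V:4495153-4495353, is shown because its window was the only 1 of the 13 without the 5 letters.
unc-62 rank 242: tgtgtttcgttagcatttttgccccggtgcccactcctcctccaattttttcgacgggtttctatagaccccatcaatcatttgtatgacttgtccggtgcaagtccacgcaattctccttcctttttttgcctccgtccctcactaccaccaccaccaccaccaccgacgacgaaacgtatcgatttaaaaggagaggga

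unc-62 (WBGene00006796) is the MEIS gene described here and lies on the plus strand at V:4497461-4511449. The annotation gives it 18 protein-coding transcripts with 15 distinct starts spread over 8 groups separated by more than 500 bp. Its window of 27.989 kb held 11 IDR summits in 10 regions, or 0.393 per kb, and their summits spanned 18233 bp with gaps of 204 to 4266 bp. Among the 495 genes whose windows were at least as long, the median was 1 IDR summit, and only unc-62 itself had as many as 11. No gene of the 19973 had more, and none had more replicate 1 summits than the 15 at unc-62. The next largest number of IDR summits was 8, at egl-27.

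**Figure D1:**
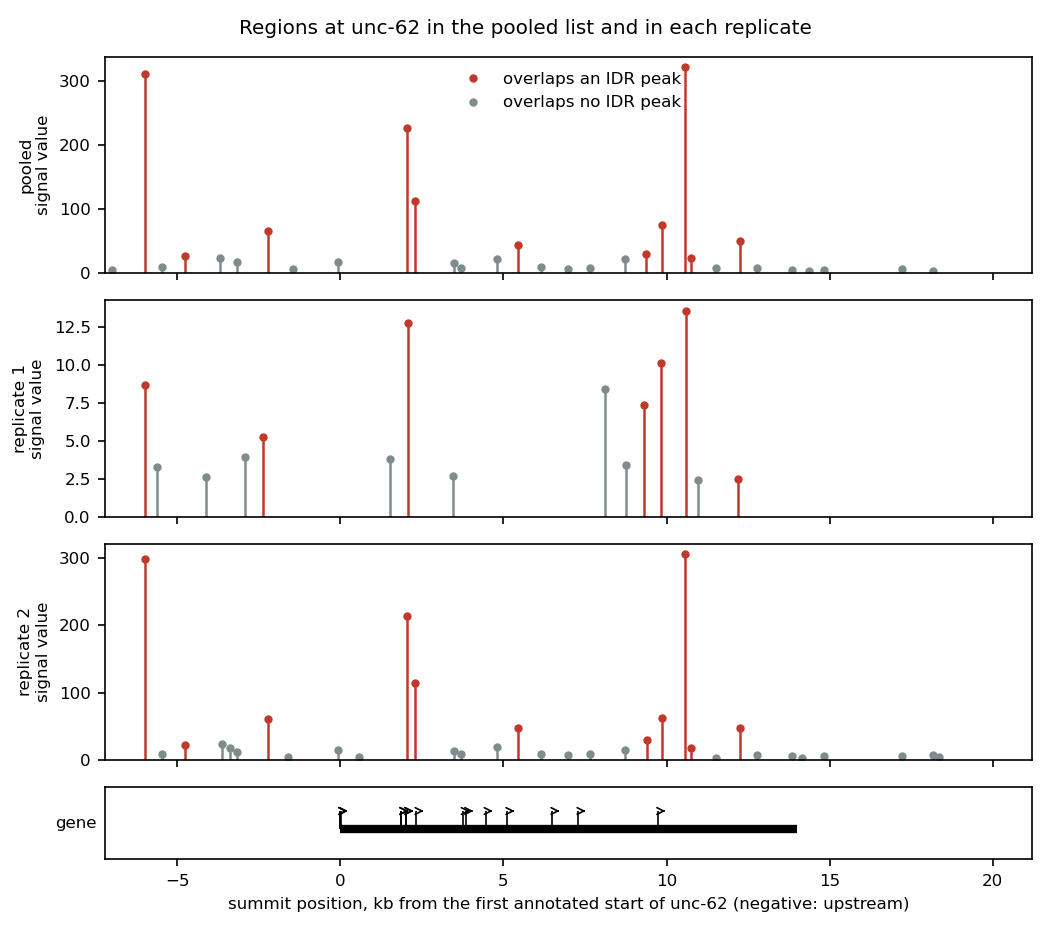
Signal value (vertical axes, arbitrary units of the authors' peak caller) of each region at unc-62 against the position of its summit (horizontal axis, kb from the first annotated start) in the pooled list and in each replicate, with the gene body and its transcript starts as arrows at the bottom. Red marks regions that overlap an IDR peak, grey those that do not. The tallest regions of the pooled list and of replicate 2 stand at about the same places, at -5997, 2058 and 10551 bp. The pooled list was made from both replicates, so it is not independent of replicate 2. Replicate 1 has a region at 8117 bp that the other lists lack.

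Upstream of all unc-62 starts, in intergenic sequence, there were 3 IDR peaks. The summit at -5997 bp, in the region V:4491262-4491633, had a signal value of 310 in the IDR set and ranked 2, with rank 47 in replicate 1 and rank 2 in replicate 2. The summit at -4757 bp had a signal value of 26.4 and ranked 2102, with rank 2584 in replicate 2 and no region in replicate 1. The summit at -2208 bp had a signal value of 65.4 and ranked 242, with rank 317 in replicate 1 and rank 267 in replicate 2. The far peak and the near peak were thus in both replicate lists, and the peak between them was in the list of replicate 2 but not of replicate 1.

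The first group of starts, from 0 to 8 bp and used by 5 annotated transcripts, had no IDR summit within the promoter window of 1000 bp upstream to 200 bp downstream. The nearest IDR summit lay 2050 to 2058 bp downstream of its starts. The pooled list did hold a region there, with its summit at -69 bp, a signal value of 18.2 and rank 3843, and it was found in replicate 2 at rank 4416 but not in replicate 1. None of the 11 IDR summits of unc-62 was thus at its first annotated promoter.

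The second group of starts, from 1866 to 2335 bp, comprised 5 starts of 5 transcripts, and all 5 had an IDR summit in their promoter windows. A single region, V:4499351-4499799, held 2 summits there, with signal values of 227 at rank 4 and 113 at rank 26. The rank 4 summit lay 31 bp downstream of the start of T28F12.2c.2 and the rank 26 summit lay at -60 bp from the start of T28F12.2e.1. Both fall in the 5′ UTR of 4 transcripts and in an intron of 5 others. In replicate 2 the summits were separate, at ranks 5 and 20. In replicate 1 both were covered by 1 region of rank 12. The second promoter group was thus among the strongest places in either replicate.

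The starts between 3751 and 7299 bp had no IDR summit in their promoter windows. The peak nearest to any of them lay 314 bp downstream of the start of T28F12.2d.7, in an intron of 15 transcripts. It had a signal value of 45.0 and ranked 659, with rank 502 in replicate 2 and no region in replicate 1. Of the 7 groups of starts after the first, 2 therefore held IDR summits in promoter windows, the second and the last.

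The last start, that of T28F12.2d.10 at 9743 bp, lay in the densest stretch of peaks. Upstream of it, at -376 bp, a summit with a signal value of 29.9 ranked 1675, with rank 91 in replicate 1 and 1537 in replicate 2. Downstream of it at 120 bp a summit with a signal value of 76.0 ranked 130, with rank 27 in replicate 1 and 245 in replicate 2. Both summits lie in the promoter window of T28F12.2d.10 and both were in either replicate list. At 808 bp from that start came the strongest peak of all 2511, V:4507800-4508190, with a signal value of 321. It was also the strongest region of replicate 2, and replicate 1 had it at rank 10. It is intronic for 17 of the 18 transcripts and 5′ UTR for T28F12.2d.10 alone. A weaker summit 204 bp further on, with a signal value of 23.8, ranked 2504 and is covered in replicate 1 by the same region of rank 10, while replicate 2 has a region of rank 3736 of its own there. The last IDR summit, at 12236 bp from the first start, had a signal value of 50.9 and ranked 480, found in replicate 2 at 496 and in replicate 1 at 2183. The strongest UNC-55 peak of the set thus lay inside the unc-62 gene, 10551 bp from its first start.

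ceh-20 (WBGene00000443) encodes the PBC protein that is the main Extradenticle counterpart in the worm, and it has 1 transcript on the plus strand at III:6979884-6981785. It had 1 IDR peak, III:6978985-6979288, whose summit lay at -746 bp in intergenic sequence and inside the promoter window. Its signal value of 225 gave it rank 5 in the IDR set, with rank 11 and a signal value of 13.5 in replicate 1 and rank 4 and a signal value of 218 in replicate 2. The other 7 pooled summits of its window ranked from 2906 to 20218. The one at rank 2906 was nearest to prk-1, and replicate 1 had a region at rank 702 in F31E3.2 with no pooled counterpart. In the IDR set ceh-20 thus had 1 strong peak close to the start, found in both replicates, where unc-62 had many peaks.

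ceh-40 (WBGene00000461), a second PBC gene that overlaps with ceh-20 in function in the embryo, has 1 transcript on the minus strand at X:12318126-12320777. Its 1 IDR summit lay at -60 bp from the start. The peak had a signal value of 34.0 and ranked 1296, close to the median signal value of 34.4 over the IDR set. It ranked 1621 in replicate 2 and had no region in replicate 1, so at ceh-40 the peak came from 1 replicate's list and the pooled list. The only region of replicate 1 in the window, at rank 433, lay nearest to srd-41.

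ceh-60 (WBGene00017690), the PBC gene of the yolk pathway, has 1 transcript on the minus strand at X:6522596-6530146 and had no IDR summit. Its pooled list held 4 summits, of which the strongest, in coding sequence 2565 bp downstream of the start, ranked 9844 with a signal value of 8.99, and replicate 2 had the same place at rank 8728. The single replicate 1 region of the window, at rank 2890, lay nearest to ets-4. The median gene window also held 4 pooled summits. The ceh-60 window was thus at that median in the pooled list and had no peak in the IDR set.

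**Figure D2:**
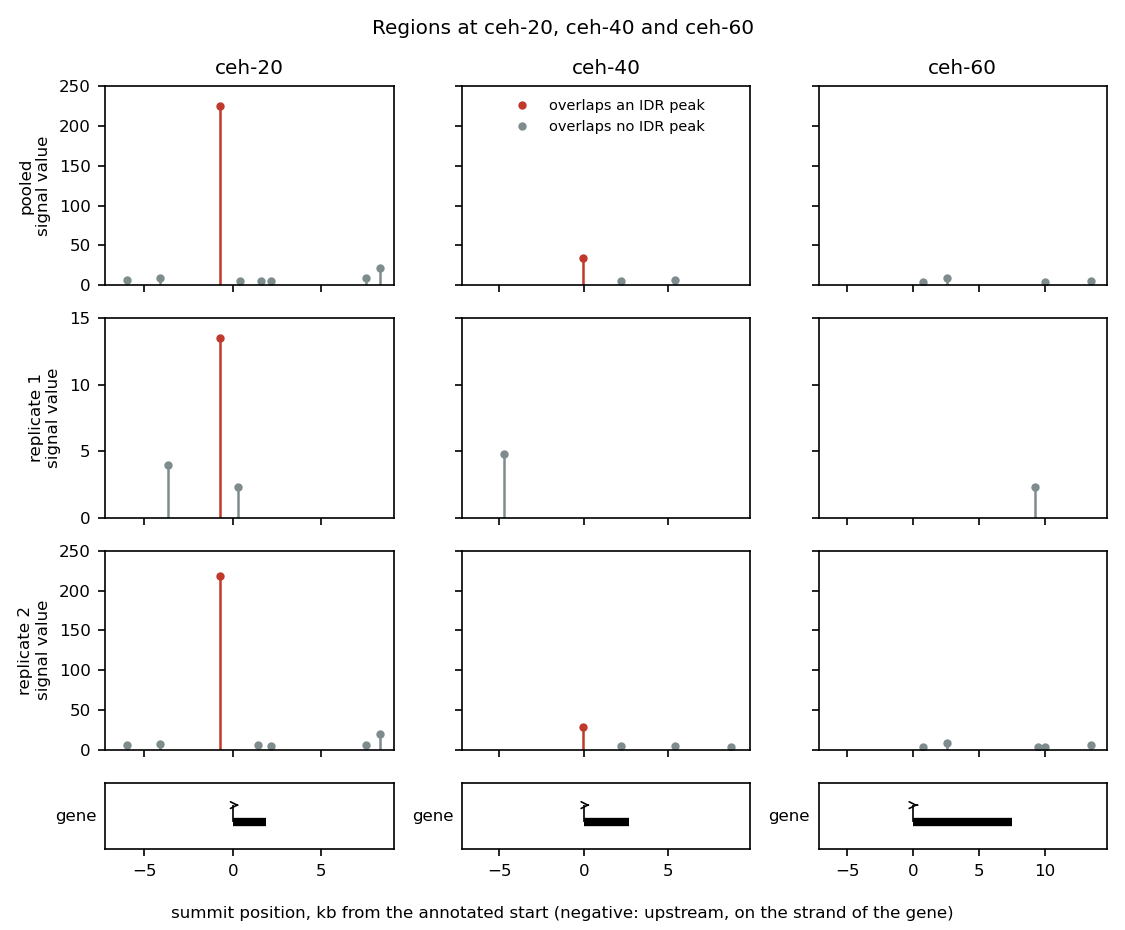
Signal value (vertical axes, arbitrary units of the authors' peak caller) of each region at ceh-20, ceh-40 and ceh-60 against the position of its summit (horizontal axes, kb from the annotated start, on the strand of the gene) in the pooled list and in each replicate. Red marks regions that overlap an IDR peak. ceh-20 has 1 tall region in all 3 lists, ceh-40 has a low one at its start in the pooled list and replicate 2, and ceh-60 has none in red.

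Of the 13 IDR summits, 6 lay in a promoter window of a protein-coding transcript, 4 at unc-62, 1 at ceh-20 and 1 at ceh-40. Over the whole set the share was 48.8%, so the count at these genes was close to the background. By gene, 3 of the 4 had an IDR summit in a promoter window, against 7.34% of all protein-coding genes, a count that the choice of genes had already fixed.

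Of the 13, 10 were overlapped by a region of replicate 1, against 30.7% of all IDR peaks. All 13 were overlapped by a region of replicate 2, as were 2510 of the 2511 IDR peaks (100%), so that count says nothing particular to these genes. The 10 had a median rank of 78 and the 3 without replicate 1 ranked 659, 1296 and 2102, and these were 2 peaks of unc-62 and the 1 of ceh-40. The 10 rested on 8 regions of replicate 1, since the unc-62 peaks of rank 4 and 26 shared 1 region and those of rank 1 and 2504 another. A replicate 1 summit lay within 100 bp of 7 of the 13 IDR summits, against 21.3% over the whole set. Of the 46 pooled summits in the windows, 15 were overlapped by both replicates, against 6.8% of all pooled regions, and 14 of the 15 were at unc-62. The genes were chosen partly by rank and signal value, and no share among peaks of like rank was computed. The part of peak strength in these counts was not tested.

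**Figure D3:**
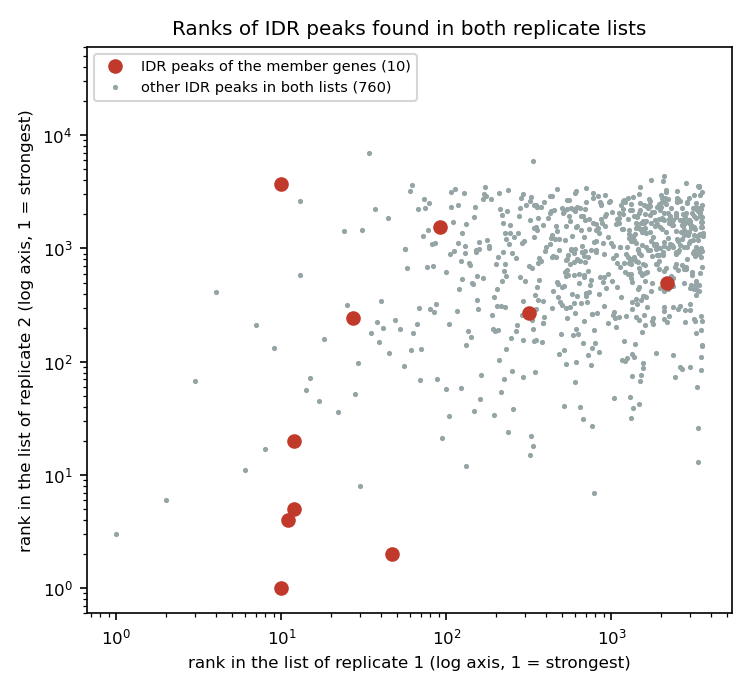
Rank in the list of replicate 2 (vertical, log axis) against rank in the list of replicate 1 (horizontal, log axis) for the IDR peaks overlapped by both lists, each matched to the overlapping region with the nearest summit. Red points are the 10 peaks of unc-62 and ceh-20 and grey points the other 760. In the lower left corner, where both ranks are 50 or better, 5 of 12 points are red. Those of IDR rank 4 and 26 share 1 replicate 1 region.

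In the rank comparison, 12 IDR peaks of the whole set ranked 50 or better in both replicates. The peak of ceh-20 and those of unc-62 with ranks 1, 2, 4 and 26 were 5 of them. The unc-62 peaks of rank 4 and 26 share 1 IDR region and the same replicate 1 region, of rank 12. The unc-62 peak of rank 2 had rank 47 in replicate 1, near the limit of 50. The remaining peaks of the 12 were nearest to M106.2, Y111B2A.12, casc-3, T23G4.127, tlp-1, igcm-4 and fbxl-5, at 1 peak each. Their best, at M106.2, ranked 3 in the IDR set, 1 in replicate 1 and 3 in replicate 2.

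The genes with the most IDR summits after unc-62, among windows that did not overlap, were egl-27 with 8, T23G4.127, cam-1 and hmg-1.1 with 7 each and the Hox gene ceh-13 with 6. Likeness was the number of IDR summits in 1 window, over 1 set made from both replicates. Their best peaks ranked 415, 9, 30, 618 and 27 in that order, against rank 1 for unc-62. These counts and ranks are by window and not by nearest start. The T23G4.127 window also holds the rank 16 peak, nearest to tlp-1, and the rank 27 peak in the ceh-13 window was nearest to lgc-12. The window of egl-27, which encodes a chromatin regulator of the MTA family, was 26.901 kb. That of cam-1, a Ror receptor tyrosine kinase, was 28.39 kb, and both were near unc-62 in length. Per kb, hmg-1.1 had 0.474 and T23G4.127 0.409 IDR summits, above the 0.393 at unc-62, in windows of 14.756 and 17.112 kb. The rates at egl-27, cam-1 and ceh-13 were lower, at 0.297, 0.247 and 0.366. Replicate 1 overlapped 1 of the 8 at egl-27 and 1 of the 7 at cam-1, against 9 of the 11 at unc-62. It overlapped 5 of 7 at T23G4.127, 4 of 7 at hmg-1.1 and 4 of 6 at ceh-13. This difference between genes was not tested.

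**Figure D4:**
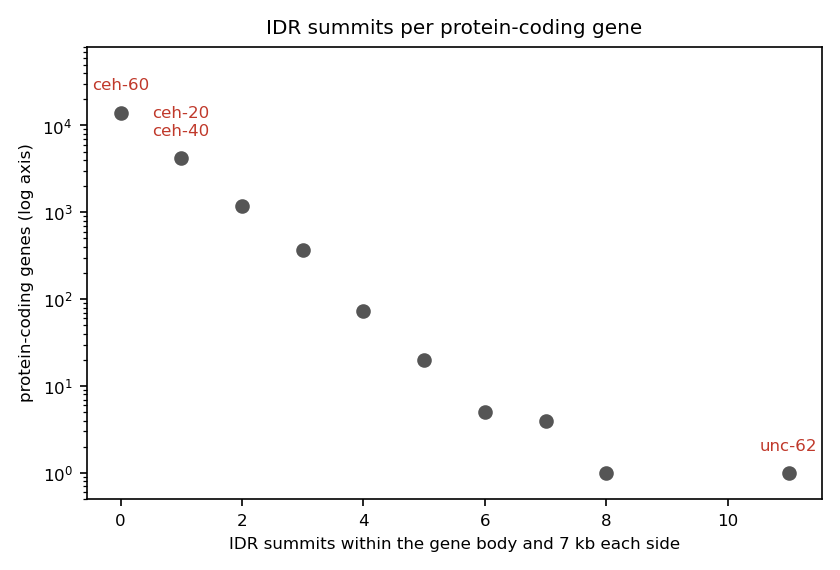
Number of protein-coding genes (vertical, log axis) against the number of IDR summits in the gene body and 7 kb on either side (horizontal). The count falls from 14078 genes with 0 to 1 gene with 8, and unc-62 stands apart at 11, while ceh-20 and ceh-40 are among the 4244 genes with 1 and ceh-60 is among those with 0.

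A list of 8 further genes held the Hox genes, whose products bind DNA together with MEIS and PBC proteins, and the related genes irx-1 and psa-3. Of these, ceh-13 had 6 IDR summits with a best rank of 27, lin-39 had 4 with a best rank of 150, and mab-5 had 3 with a best rank of 753. All 3 are Hox genes, and each had an IDR summit in a promoter window. These were 3 of the 8 listed genes, against 7.34% of all protein-coding genes. The Hox genes egl-5, nob-1 and php-3, the Iroquois gene irx-1 and psa-3, a Meis-related target of Hox regulation, had 0. A summit was thus present at 3 of these 8 genes, against 29.5% of all protein-coding genes, and the list was chosen with earlier results of these data known. Windows of ceh-13, lin-39 and mab-5 also reach other genes, and the peak of rank 27 at ceh-13 was nearest to lgc-12.

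Motifs were counted in the summit base and 100 bp on each side, on either strand. AGGTCA, the core of COUP-TF sites, was in 1 of the 13 windows, at ceh-20, where it begins at -80 bp from the summit, and in 6.33% of all IDR windows. GAGAGA was in 3 against 51.6%, ACGCAG in 1 against 27.4%, and TAATCC in 0 against 3.94%. The MEIS site TGACAG was in 3, against 15.2%, at the rank 4 and 26 summits of unc-62 and at ceh-40. Of sites for PBC with a partner, TGATTGAT was in 1 against 4.38%, TGATTGAC in 1 against 3.07%, and TGATNNAT, which overlaps with TGATTGAT, in 3 against 20.5%. The TGATTGAC match lay in the rank 2 window on the minus strand and shares letters with the second TGACA there. With 13 windows each of these counts is small.

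TGACA itself, which lies within TGACAG, was chosen after sequences of these windows had been seen, so its counts there are a description only. It was in 12 of the 13 windows (92.3%), against 48.0% of all IDR windows. With the top regions of replicate 1 alone it was in 10 of 17 windows at these genes (58.8%), against 38.7% of all such regions. With those of replicate 2 alone it was in 10 of 12 (83.3%), against 48.2%. At least 2 matches were present in 8 of the 13, against 16.7%, and at least 3 in 3, against 4.42%, at the unc-62 peaks of rank 2, 4 and 130. The 13 windows held 23 matches, 1.77 per window, against 0.710 over all IDR peaks. Among IDR peaks of rank 1 to 100 at other genes, 69 of 95 held it, or 72.6%, with a mean of 1.32 matches per window. The part of peak strength in the count at unc-62 and ceh-20 was not tested. GC content had a median of 46.3% and a range of 39.8 to 52.2% in the 13 windows, against a median of 44.3% over all IDR peaks. A match of these letters is a description of the sequence and shows no binding by any of the proteins named.

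**Figure D5:**
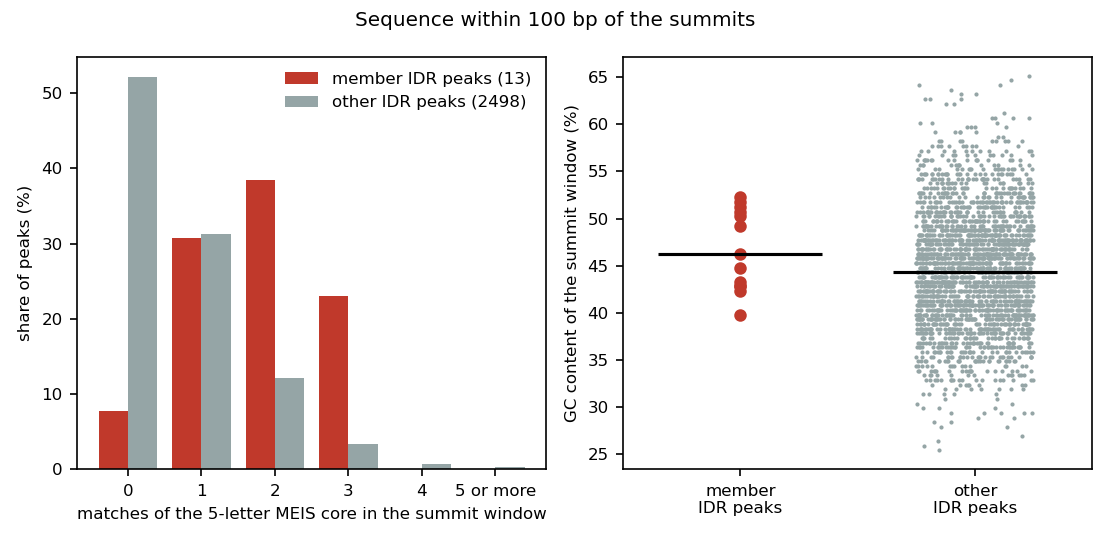
Left, share of peaks (percent) by the number of TGACA matches within 100 bp of the summit, for the 13 peaks of the MEIS and PBC genes (red) and the other 2498 IDR peaks (grey). Right, GC content of the same windows (percent), with a point per peak and a black line at the median. The red bars are highest at 2 matches and the grey bars at 0, while the red points lie inside the spread of the grey. TGACA was chosen after sequences of the red peaks had been seen.

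The threshold of the IDR set passed through the weak end of the unc-62 window. The weakest IDR peak there had a signal value of 23.8 at rank 2504, and the strongest pooled region left outside, at -3698 bp, had 23.4 at rank 2590. In all, 33 pooled regions of the 4 windows lay outside the IDR set, and replicate 1 overlapped 6 of them.

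The unc-62 window held a strong region in replicate 1 alone. Its summit lay 8117 bp from the first start, in an intron of 15 transcripts and the 5′ UTR of 2, with a signal value of 8.44 and rank 51 of 3577. No region of the pooled list, replicate 2 or the IDR set overlapped it, and the nearest summit of the pooled list and of replicate 2 was 464 bp away. Of the 51 regions of replicate 1 with that rank or better, 6 had no pooled region and 16 no IDR region. In the 4 windows together, 7 of 20 replicate 1 regions had no pooled region, close to the 38.9% over the whole list.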

How the data were processed

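ChIP-seq regions were deposited by the authors as peak lists for 2 biological replicates of 1 group, their pooled reads and an IDR set made from them, per the descriptions deposited with them. For the caller, the aligner and their settings, the sources used here give no name. The signal value and the −log10 q-value of each region are the authors' own, and the deposited q-value is 1 value throughout the IDR set and replicate 1, so it was not used to rank. The deposited signal was used only within a list. Ranks, overlaps (at least 1 bp), distances and counts were computed here with Python 3.11.15, pandas 2.3.3 and NumPy 2.4.6, and figures with matplotlib 3.10.9. Starts came from Ensembl release 115 (WBcel235). A summit in 2 windows counts in each. The counting was tested on simulated regions. The 4 genes, the 8 partner genes and the motifs were chosen with earlier results of these data known. Named genes were the 4 with their peaks, the 8 partners, the 5 genes with the most IDR summits after unc-62 and the peaks ranking 50 or better in both replicates. No test was run, since members were chosen from these values. Alternatives covered flanks, overlaps, windows, the stronger 1255 IDR peaks and each replicate alone.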

Additional observations from a re-analysis of the deposited data

How the results depend on the processing

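Of 87 alternatives over 18 values, 76 stayed near the reported value, counts within 1.5 times of it, and 11 moved. With only the stronger 1255 of the IDR peaks, ceh-40 had 0 summits. Motif counts over the 13 windows moved with the window: AGGTCA was in 0 with 50 bp each side and in 2 with 150 bp, ACGCAG was in 0 with 50 bp, TGATNNAT was in 6 and TAATCC in 1 with 150 bp. Leaving out 1 replicate, the counts were 10 to 14 at unc-62, 1 to 2 at ceh-20, 1 to 1 at ceh-40 and 0 to 0 at ceh-60. The ceh-40 count without replicate 2 is another region, at -4698 bp and nearest to srd-41, and the peak at the ceh-40 start is lost. These were 12 summits in all without replicate 1 and 17 without replicate 2, against 13 as reported. Of the 12, 12 were nearest a start of these genes, 6 were in promoter windows and 10 held TGACA (83.3%). Of the 17 without replicate 2, 15 were nearest such a start, 7 were in promoter windows and 10 held TGACA (58.8%), against a reported TGACA share of 92.3%. AGGTCA was in 0 to 1, TGATTGAT in 0 to 1, TGATNNAT in 2 to 6 and TAATCC in 0 to 1 of these windows. Median GC content was 42.3 to 49.3% in those alternatives. The cause of these movements was not tested. The alternatives that leave out a replicate for promoter, nearest-start and motif counts were chosen after seeing the data, as was TGACA. No paired analysis was possible because there is 1 group. Library depth is unknown, so what depth limits cannot be given.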

Other observations

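Outside the IDR set, pooled regions inside unc-62 included one at 4798 bp with rank 2872 and one at 8713 bp with rank 2897, the second also in replicate 1 at rank 1163. Replicate 1 also overlapped pooled regions of rank 3813, at 716 in its own list, and 4712, at 1794.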
